A study of Mus musculus with 6 samples.

Results

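The mouse mitochondrial genome encodes 37 genes, and all 37 were listed among the 54551 annotated features of each deposited table. They were taken by name, as every feature on MT whose symbol starts with mt-. They comprised 13 mRNAs, 2 rRNAs and 22 tRNAs, and were described by class. RNA came from granulosa cells, the follicle cells around the oocyte, of ovaries of C57BL/6 mice on postnatal day 21. All mice had received 5 IU of PMSG, which drives follicle growth, for 48 h and 5 IU of hCG, an ovulation trigger that acts on the luteinizing hormone receptor, for 6 h. By label, 3 libraries were of wild-type and 3 of Gm12840-/- mice, written below as wild type 1 to 3 and knockout 1 to 3 after those labels. The labels name neither the deleted part of Gm12840 nor the animals behind each library, so a p-value covers no more than the spread among these samples, which may be technical.

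Mitochondrial DNA is transcribed from both strands as long precursors that run through most of the genome. Every rRNA and mRNA except mt-Atp6 lies next to a tRNA, and excision of the tRNAs frees the RNAs between them. No tRNA separates mt-Atp8, mt-Atp6 and mt-Co3 from one another, mt-Nd4l from mt-Nd4, or mt-Nd5 from mt-Nd6. The mRNAs encode core subunits of respiratory complexes I, III, IV and V, the rRNAs build the mitochondrial ribosome, and the tRNAs serve translation inside the organelle. Steroid-making cells depend on this organelle, because the first step of steroid synthesis takes place at its inner membrane. Of the 37 genes, 28 lie on the plus strand and 9 on the minus strand, which are mt-Nd6 and 8 tRNAs. The libraries were made with a TruSeq RNA kit, which is taken here to keep no record of strand. On that reading, RNA from opposite strands of one place cannot be told apart.

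Levels in the 6 libraries did not follow the labels. Recovered depth was even, at 16392098 to 19465847 reads a library. Gm12840 itself rested on 17, 6 and 5 reads in wild type 1 to 3 and on 5, 7 and 14 reads in knockout 1 to 3, so it was not lower in the libraries labelled knockout. Every direction between groups below therefore rests on the labels. Wild type 3, knockout 1 and knockout 2 stood together against wild type 1, wild type 2 and knockout 3 in many genes. All 3 were above the other 3 in 3925 of the 12495 genes tested (31.4%) and all 3 below them in 4367 (35.0%). The slope of expression on gene length, in log2 units per log2 of length over tested genes, was -0.260, -0.213 and -0.0230 in wild type 1 to 3 and -0.0898, 0.0658 and -0.251 in knockout 1 to 3. It was higher in the same 3 libraries, and values with it as a covariate are given with the comparison of the labelled groups. Levels are in FPKM, fragments scaled to gene length and library size, a scale meant for comparing genes of different length. Since the slopes above differed between libraries, such comparisons are only approximate.

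A stretch of this genome is also present in nuclear DNA. The 6 mRNAs inside it had lower mean FPKM than the other mRNAs, so the copy is shown first. GENCODE annotates 7 pseudogenes in a row on the minus strand of chromosome 1, from 24611535 to 24616197 (mm10). Their transcripts matched MT from 6381 to 11042 in order and without gaps within any pair. Over 4149 aligned bases, 7 differed, an identity of 99.8%. Of the 7 differences, 6 lay in the first bases of the copied part of mt-Co1, written from position 1 at the start of the gene as T1056A, C1057T, A1059G, A1060G, C1062A and A1066T. Capitals below mark those bases in mt-Co1 (MT, 6381 to 6420, plus strand) and in its copy Gm29216 (chromosome 1, 24616158 to 24616197, minus strand).
mt-Co1: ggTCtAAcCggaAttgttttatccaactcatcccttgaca
Gm29216: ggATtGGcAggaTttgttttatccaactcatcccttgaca
The other difference was T3C in mt-Nd3, in capitals below, shown with its copy Gm28438 over the first 40 bases of the gene (MT, 9459 to 9498).
mt-Nd3: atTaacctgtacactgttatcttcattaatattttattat
Gm28438: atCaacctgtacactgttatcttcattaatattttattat
mt-Co2 and its copy Gm28661 did not differ in any of 681 bases. Their first 40 bases (MT, 7013 to 7052, against chromosome 1, 24615526 to 24615565) are shown because they are the same at both places.
mt-Co2: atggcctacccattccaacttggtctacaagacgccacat
Gm28661: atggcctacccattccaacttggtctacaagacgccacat
mt-Atp6 with Gm10925 (678 bases), mt-Co3 with Gm28437 (783), mt-Nd4l with Gm10222 (294) and the first 876 bases of mt-Nd4 with Gm28439 were also identical. The 6 mRNAs inside the copied stretch were mt-Co2, mt-Atp8, mt-Atp6, mt-Co3, mt-Nd3 and mt-Nd4l. mt-Co1 and mt-Nd4 lay partly in it. mt-Atp8 and the tRNAs of the stretch were placed in it by position between aligned neighbours, since no annotated copy of them was aligned. The other 5 (mt-Nd1, mt-Nd2, mt-Nd5, mt-Nd6 and mt-Cytb) lay outside. How the authors' counting treated reads that match both places is not given in the sources used here, so the values of the 8 mRNAs wholly or partly in the stretch are uncertain. Outside it, mt-Nd2 shared short identical runs with Gm13339, and mt-Nd5 with Gm4076 and Gm11407, so their values may be affected too. mt-Co1 also shared such runs with Gm13340 on chromosome 2, which held 5, 8 and 80 reads in wild type 1 to 3 and 62, 129 and 3 in knockout 1 to 3.

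Messenger RNAs made up most mitochondrial reads and varied most between libraries. They took 0.198%, 0.286% and 2.05% of all reads in wild type 1 to 3 and 1.47%, 4.13% and 0.125% in knockout 1 to 3, a 33.0-fold range. The rRNAs took 0.0270%, 0.0242% and 0.0277% in wild type 1 to 3 and 0.0441%, 0.0562% and 0.0201% in knockout 1 to 3, a 2.79-fold range. Each labelled group thus held low and high libraries for the mRNAs, while the rRNA shares stayed within a far narrower range. The tRNAs took 0.00146%, 0.00109% and 0.00273% in wild type 1 to 3 and 0.00279%, 0.00532% and 0.00123% in knockout 1 to 3, a 4.88-fold range. Those tRNA shares rest on 196 to 872 reads, and the exact binomial 95% interval of the highest, knockout 2, was 0.00497% to 0.00568%. Intervals cover counting error only, since reads amplified without molecular identifiers are not independent molecules. Of mitochondrial reads, rRNAs were 13.8% in knockout 3 and 1.33% in wild type 3. In bulk RNA, fewer cells of a type and less RNA per cell cannot be told apart.

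**Figure D1:**
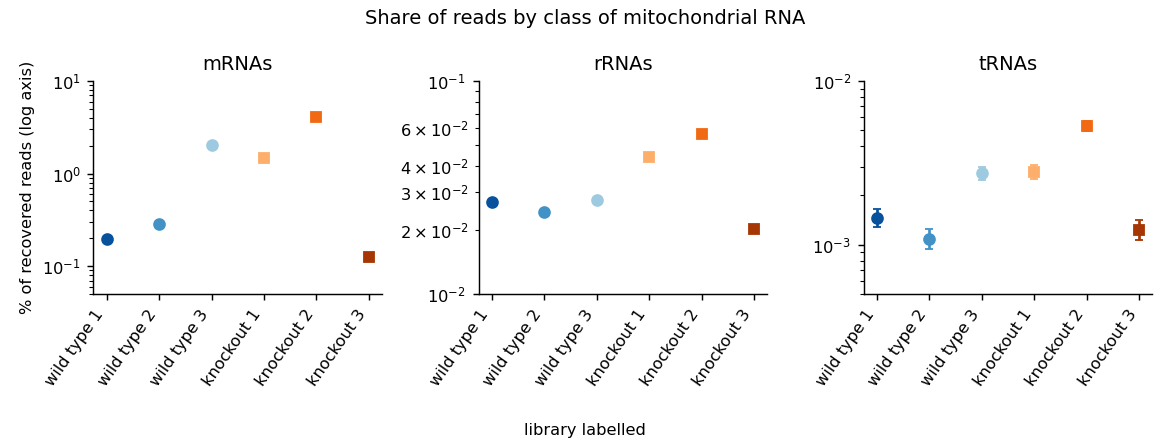
Percent of recovered reads (log axis, its own range in each panel) from mitochondrial mRNAs, rRNAs and tRNAs in each of the 6 libraries, with exact binomial 95% intervals that are smaller than most points. The mRNA share runs from 0.125% to 4.13%, the rRNA share from 0.0201% to 0.0562%, and knockout 2 is highest in all 3 panels.

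Complex I, which takes electrons from NADH, has 7 of the 13 mRNAs. mt-Nd1 (ENSMUSG00000064341, MT 2751 to 3707), a subunit of its membrane arm, stood at 130, 203 and 1790 FPKM in wild type 1 to 3 and at 1277, 3754 and 71.1 FPKM in knockout 1 to 3. mt-Nd2 (ENSMUSG00000064345, MT 3914 to 4951), another membrane subunit, stood at 68.1, 71.6 and 913 FPKM and at 519, 2159 and 81.7 FPKM in the same order. Wild type 3, knockout 1 and knockout 2 were high and the other 3 low for both genes, with ratios of highest to lowest library of 52.8 and 31.7, and the labelled groups overlapped. mt-Nd4 (ENSMUSG00000064363, MT 10167 to 11544), a proton-pumping subunit, stood at 23.2, 47.3 and 974 FPKM in wild type 1 to 3 and at 559, 1938 and 11.3 FPKM in knockout 1 to 3. Its ratio of highest to lowest library, 172, was the widest of the 11 mRNAs with reads in every library.

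mt-Nd5 (ENSMUSG00000064367, MT 11742 to 13565), the longest of the 13 mRNAs at 1824 bases and also a proton-pumping subunit, stood at 183, 93.0 and 380 FPKM in wild type 1 to 3 and at 208, 1365 and 109 FPKM in knockout 1 to 3. Its lowest library was wild type 2, and wild type 1 (183 FPKM) lay close to knockout 1 (208 FPKM). mt-Nd6 (ENSMUSG00000064368, MT 13552 to 14070), the only mRNA of the minus strand, stood at 100.1, 128 and 529 FPKM and at 411, 1050 and 68.5 FPKM. It ran over a 15.3-fold range, close to the 14.7-fold range of mt-Nd5, with which it shares 14 bases on opposite strands. Without strand, reads of mt-Nd6 and of RNA antisense to it are one value.

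The 2 short complex I mRNAs inside the copied stretch were scarcely counted. mt-Nd3 (ENSMUSG00000064360, MT 9459 to 9806) stood at 3.29, 2.89 and 5.00 FPKM in wild type 1 to 3 and at 8.45, 7.23 and 2.43 FPKM in knockout 1 to 3. mt-Nd4l (ENSMUSG00000065947, MT 9877 to 10173) had 0, 1 and 28 reads in wild type 1 to 3 and 9, 130 and 0 in knockout 1 to 3, or at most 23.9 FPKM. In wild type 1 and knockout 3, where it had 0 reads, a count of 0 allows up to 0.680 and 0.656 FPKM, taking 3 reads as the limit. mt-Nd4l overlaps the start of mt-Nd4 by 7 bases, in capitals here (MT, 10147 to 10193), which are carried on one RNA.
mt-Nd4l/mt-Nd4: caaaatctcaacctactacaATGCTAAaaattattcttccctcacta
Although they share those 7 bases, mt-Nd4 held 94367 reads over the 6 libraries and mt-Nd4l 168. The 2 are unlike in length and in cover by the nuclear copy. Of the 1378 bases of mt-Nd4, 876 aligned to its copy, and of the 297 of mt-Nd4l, 294.

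Complex III, which passes electrons to cytochrome c, has 1 mitochondrial mRNA. mt-Cytb (ENSMUSG00000064370, MT 14145 to 15288), its cytochrome b, stood at 195, 312 and 2868 FPKM in wild type 1 to 3 and at 2046, 5809 and 115 FPKM in knockout 1 to 3. Of its neighbours in mean level, mt-Co1 was above it in 6 of 6 libraries and mt-Nd1 below it in 6 of 6. Its 50.7-fold range was close to that of mt-Nd1.

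Complex IV, cytochrome c oxidase, has 3 mitochondrial subunits that the counts set far apart. mt-Co1 (ENSMUSG00000064351, MT 5328 to 6872), the catalytic subunit, stood at 814, 1289 and 6423 FPKM in wild type 1 to 3 and at 4866, 12115 and 456 FPKM in knockout 1 to 3. mt-Co2 (ENSMUSG00000064354, MT 7013 to 7696), which receives electrons from cytochrome c, stood at 87.1, 74.6 and 78.6 FPKM and at 116, 62.5 and 135 FPKM. mt-Co3 (ENSMUSG00000064358, MT 8607 to 9390), the third core subunit, stood at 72.5, 84.2 and 60.0 FPKM and at 98.3, 51.3 and 59.1 FPKM. mt-Co1 varied 26.6-fold, while mt-Co2 and mt-Co3 varied 2.16-fold and 1.92-fold. By FPKM both were lowest in knockout 2, the library with most mt-Co1. For mt-Co3 this depended on the scale, with 735 of 16392098 reads in knockout 2 and 713 of 17020427 in knockout 3. The levels of mt-Co2 and mt-Co3 are uncertain for the reason given with their sequences.

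Complex V, the ATP synthase, has 2, and their reading frames overlap by 43 bases, in capitals here (MT, 7907 to 7989), so that both are read from one RNA.
mt-Atp8/mt-Atp6: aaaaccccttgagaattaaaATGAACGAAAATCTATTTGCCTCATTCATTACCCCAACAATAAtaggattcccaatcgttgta
mt-Atp6 (ENSMUSG00000064357, MT 7927 to 8607), part of the proton channel, stood at 13.2, 15.6 and 58.9 FPKM in wild type 1 to 3 and at 46.3, 36.5 and 4.96 FPKM in knockout 1 to 3. mt-Atp8 (ENSMUSG00000064356, MT 7766 to 7969), a small subunit, had 0, 0 and 40 reads and 9, 4 and 0 reads, at most 8.98 FPKM. Where it had 0 reads, the limit was 0.991, 0.870 and 0.955 FPKM in wild type 1, wild type 2 and knockout 3. mt-Atp6 was higher in wild type 3 than in knockout 2, unlike mt-Co1.

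Mean levels were lower inside the copied stretch, while ranges there were mixed. The 5 mRNAs outside it had mean levels over the 6 libraries of 381 to 1891 FPKM, and the 6 inside of 2.07 to 92.2 FPKM. In wild type 3, knockout 1 and knockout 2, every mRNA inside was below every one outside. The other libraries overlapped. In knockout 3, mt-Co2 (135 FPKM) was above all 5 outside, the highest of which was mt-Cytb (115 FPKM). In wild type 1 and 2, mt-Co2 and mt-Co3 were above mt-Nd2 (68.1 and 71.6 FPKM). Ratios of highest to lowest library were 14.7 to 52.8 for the 5 outside, 26.6 and 172 for the 2 partly inside, and 1.92 to 11.9 for the 4 inside that had reads in every library. mt-Nd4l, also inside, was at least 35.2-fold higher in knockout 2 than in wild type 1, taking 3 reads there as the limit. Over all 12495 tested genes the median of this ratio was 2.32, and 2.99% had a ratio of at least 10 with no library at 0. The inside mRNAs together held 18.1% of mRNA FPKM in knockout 3 and 0.643% in knockout 2. GC content of the 13 mRNAs ran from 31.9% in mt-Atp8 to 41.1% in mt-Nd4l, both inside the stretch.

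**Figure D2:**
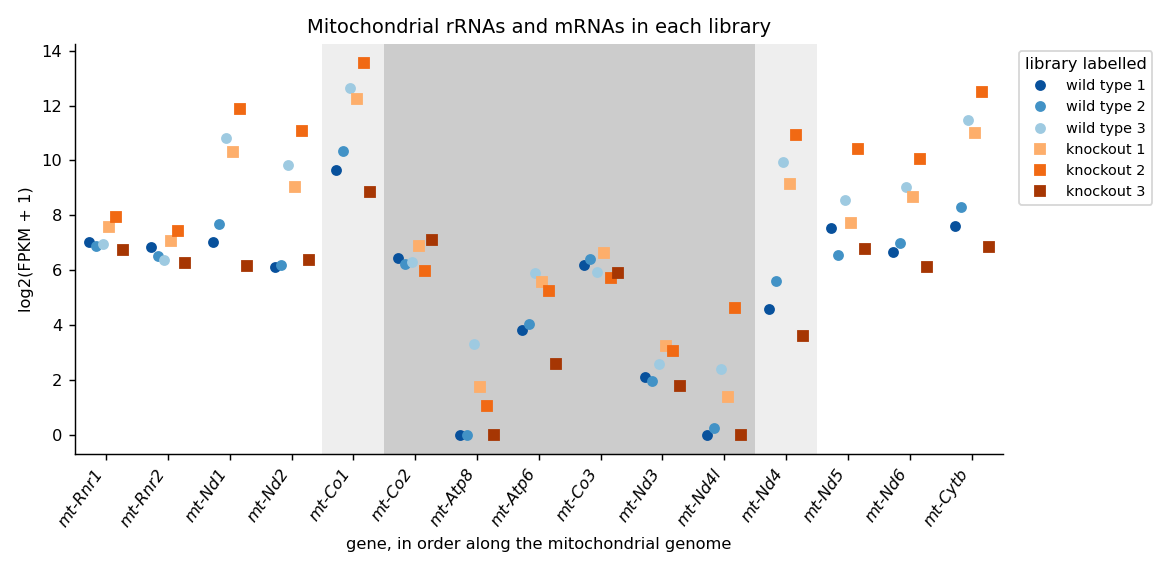
Level of the 2 rRNAs and 13 mRNAs as log2(FPKM + 1) in each library, with genes in their order along the genome; background is white outside the copied stretch, light grey for genes partly in it and darker grey for genes inside it. mt-Co1, in light grey, spans 456 to 12115 FPKM, while mt-Co2 next to it spans 62.5 to 135 FPKM.

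Reads counted on the nuclear copies were as many as those on several of the genes. For mt-Co2, 885, 862 and 1173 reads in wild type 1 to 3 and 1479, 781 and 1422 in knockout 1 to 3 stood beside 1391, 1139 and 1041 and 1638, 820 and 1079 on Gm28661. The copy thus took 43.1% to 61.1% of the reads of the pair. For mt-Atp6 the copy took 37.3% to 55.7%, for mt-Co3 30.2% to 43.2%, and for mt-Nd3 79.8% to 91.8%. For the 2 genes partly in the stretch it took little, at 0.170% to 1.50% for mt-Co1 and 0.291% to 0.830% for mt-Nd4. With gene and copy summed, the inside mRNAs that have an annotated copy stayed below mt-Co1 in every library. The gap differed widely between libraries. In knockout 2, mt-Co2 with its copy stood at 128 FPKM, beside 12115 FPKM for mt-Co1 and 5809 FPKM for mt-Cytb. In knockout 3 it stood at 238 FPKM, beside 456 FPKM for mt-Co1 and 115 FPKM for mt-Cytb, the highest of the 5 mRNAs outside. mt-Co2 with its copy came to 128 to 244 FPKM and ran over a 1.90-fold range, mt-Co3 with its copy over a 1.84-fold range and mt-Atp6 with its copy over a 13.1-fold range. mt-Nd3 with its copy ran over a 5.60-fold range. The copy of mt-Nd4l, Gm10222, had 12, 1 and 53 reads in wild type 1 to 3 and 31, 68 and 8 in knockout 1 to 3, which was 34.3% to 100% of the pair. With its copy mt-Nd4l ran from 0.398 FPKM in wild type 2, on 2 reads, to 36.5 FPKM in knockout 2, so the ranges of the summed pairs were not all narrow. Reads placed nowhere are not in these tables, so what share of this stretch they held was not tested.

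**Figure D3:**
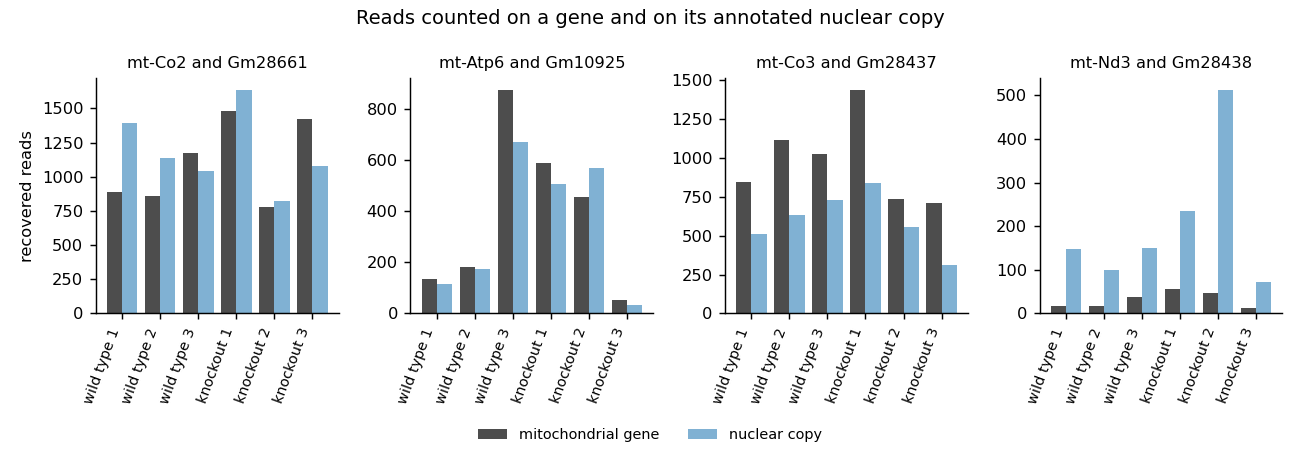
Recovered reads on 4 mitochondrial genes (dark bars) and on their annotated nuclear copies (blue bars) in each library, with a linear axis from 0 in each panel. The copy holds 43.1% to 61.1% of the pair's reads for mt-Co2 and 79.8% to 91.8% for mt-Nd3.

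**Figure D4:**
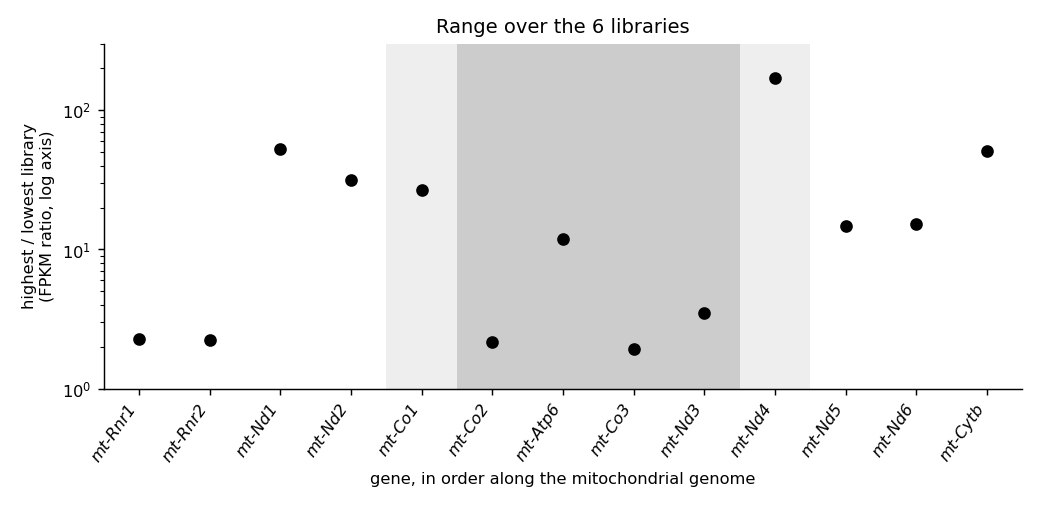
Ratio of the highest to the lowest library in FPKM (log axis) for the 2 rRNAs and the 11 mRNAs with reads in every library, in genome order, with the same background shading by position (white outside, light grey partly and darker grey inside the copied stretch). mt-Nd4 reaches 172, while mt-Rnr1, mt-Rnr2, mt-Co2 and mt-Co3 lie near 2.28, 2.25, 2.16 and 1.92.

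The order of the libraries was shared by most mRNAs. Wild type 3, knockout 1 and knockout 2 were the 3 highest in 11 of 13 mRNAs, in 6 of 10 tested tRNAs (of 22 in all) and in 0 of 2 rRNAs, and 31.4% of all tested genes had that order. The exceptions among the mRNAs were mt-Co2 and mt-Co3. mt-Atp8, mt-Nd4l, mt-Tw and mt-Te entered the test only because those 3 libraries had FPKM over 1, so their order was fixed by the filter. The share over all tested genes takes in any other genes that entered in this way. The 5 mRNAs mt-Nd1, mt-Co1, mt-Nd4, mt-Nd6 and mt-Cytb had one full order, from knockout 2 through wild type 3, knockout 1, wild type 2 and wild type 1 down to knockout 3. Genes of one precursor and one library are not independent, so these counts describe the 6 libraries.

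The rank of the mRNAs by mean FPKM, in which knockout 2 weighs most, was mt-Co1, mt-Cytb, mt-Nd1, mt-Nd2, mt-Nd4, mt-Nd5 and mt-Nd6, then mt-Co2, mt-Co3, mt-Atp6, mt-Nd4l, mt-Nd3 and mt-Atp8. Neighbours did not keep their order where mt-Nd2 exceeded mt-Nd4 in 4 of 6 libraries, mt-Nd4 exceeded mt-Nd5 in 3 and mt-Nd5 exceeded mt-Nd6 in 3. mt-Nd4l exceeded mt-Nd3 in 1 of 6 although its mean was higher. By mean share of mRNA FPKM, which weights libraries equally, mt-Nd5 (5.70%) was above mt-Nd2 (5.61%), and mt-Nd6 (4.84%) above mt-Nd4 (3.95%). In knockout 3, mt-Co2 at 135 FPKM was second to mt-Co1. mt-Co1 made up 40.9% to 55.5% of mRNA FPKM. Relative to mt-Co1, mt-Cytb was 23.9%, 24.2% and 44.6% in wild type 1 to 3 and 42.0%, 48.0% and 25.1% in knockout 1 to 3. mt-Nd4 was 2.85%, 3.67% and 15.2% of mt-Co1 and 11.5%, 16.0% and 2.47% in the same order. Both were thus higher relative to mt-Co1 in the 3 libraries with most mitochondrial mRNA. mt-Nd5 was not, at 22.4%, 7.22% and 5.92% in wild type 1 to 3 and 4.28%, 11.3% and 24.0% in knockout 1 to 3.

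The rRNAs, the scaffold of the mitochondrial ribosome, were flatter. mt-Rnr1 (ENSMUSG00000064337, MT 70 to 1024), the small-subunit 12S rRNA, stood at 128, 118 and 122 FPKM in wild type 1 to 3 and at 192, 242 and 106 FPKM in knockout 1 to 3. mt-Rnr2 (ENSMUSG00000064339, MT 1094 to 2675), the large-subunit 16S rRNA, stood at 113, 91.5 and 82.5 FPKM and at 133, 172 and 76.6 FPKM. mt-Rnr1 was above mt-Rnr2 in 6 of 6 libraries. By FPKM, wild type 3, high for the mRNAs, was not high for either rRNA, and knockout 2 was highest and knockout 3 lowest for both. By share of reads, the place of wild type 3 differed. There the 2 rRNAs together took 0.0277% in wild type 3, slightly above 0.0270% in wild type 1 and 0.0242% in wild type 2. In cells, mitochondrial rRNA is usually more abundant than any single mitochondrial mRNA, whereas here mt-Co1 exceeded both rRNAs in every library. How RNA was selected before library making is not given in the labels.

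The tRNAs, 59 to 75 bases long, gave 2518 reads over the 6 libraries. Of the 22, 6 had reads in every library and held 93.8% of those reads, 11 had 1 to 67 reads in all with at least 1 library at 0, and 5 had 0 reads in every library. The 5 tRNAs inside the copied stretch had 1 read in all and the 17 outside it 2517. The 4 with the highest mean level are printed 5′ to 3′ as tRNA-strand sequence, because 3 of them (mt-Tn, mt-Tc and mt-Tp) lie on the minus strand, opposite the rRNAs and most mRNAs.
mt-Tn: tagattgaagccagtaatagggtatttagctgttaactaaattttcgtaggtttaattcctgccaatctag
mt-Tc: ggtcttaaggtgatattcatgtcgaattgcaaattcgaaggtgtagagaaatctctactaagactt
mt-Tl2: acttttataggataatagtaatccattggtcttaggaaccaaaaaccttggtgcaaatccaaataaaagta
mt-Tp: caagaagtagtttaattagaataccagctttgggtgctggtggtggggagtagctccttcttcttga
mt-Tp (MT, 15356 to 15422), the proline tRNA, stood at 33.2, 23.0 and 213 FPKM in wild type 1 to 3 and at 161, 420 and 10.7 FPKM in knockout 1 to 3. It had 1098 reads and a 39.3-fold range, and its 3 highest libraries were those of mt-Cytb, which lies on the other strand. Only mt-Tt lies between them, and its 5 reads were all in wild type 1. mt-Tc (MT, 5192 to 5257), the cysteine tRNA, stood at 42.9, 36.8 and 54.8 FPKM and at 51.8, 92.0 and 37.4 FPKM. mt-Tn (MT, 5089 to 5159), the asparagine tRNA, stood at 25.6, 28.3 and 26.5 FPKM and at 40.7, 78.6 and 26.5 FPKM. Those 2 lie 32 bases apart on either side of the origin of light-strand replication, and both were highest in knockout 2. mt-Tl2 (MT, 11671 to 11741), a leucine tRNA, did not share their order, at 108, 58.3 and 18.7 FPKM in wild type 1 to 3 and 67.0, 37.8 and 88.7 FPKM in knockout 1 to 3. Its lowest library was wild type 3. Reads of a mature tRNA and of its precursor cannot be told apart in these tables.

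The comparison the study set up was between the labelled genotypes. limma called 0 of the 25 mitochondrial genes tested, against 0 of 12495 genes over the whole table (0%), with an adjusted p of 0.993 for every member. At an unadjusted p under 0.05 there were 0 members, against 91 genes (0.728%) over the table. By limma-voom on recovered reads there were also 0 called genes, with 75 at an unadjusted p under 0.05. Members whose labelled groups did not overlap numbered 0, against 441 genes (3.53%). The 25 tested genes were all 13 mRNAs, both rRNAs and 10 tRNAs, and 12 tRNAs fell under the filter of FPKM over 1 in at least 3 libraries. Fold changes (knockout minus wild type, on the log2(FPKM + 1) scale, which understates low genes) were positive for 10 of 13 mRNAs, 2 of 2 rRNAs and 10 of 10 tRNAs, and for 45.0% of all tested genes. Their medians were 0.71, 0.41 and 0.52, beside -0.035 for all tested genes.

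The intervals of the fold changes differed widely among members. The log2 fold change of mt-Co1 was 0.67 with an SE of 1.38 and a 95% interval of -2.62 to 3.95. That of mt-Nd4 was 1.18, with an interval of -3.91 to 6.28. That of mt-Rnr1 was 0.47 (-0.41 to 1.36), and that of mt-Co3 was -0.098 (-0.88 to 0.68). The mRNA shares were 0.846% ± 1.05 and 1.91% ± 2.04 of reads (SD, n = 3 each). The spread within each group exceeded its mean, so even a several-fold difference between groups was not detectable. Single libraries decided the median of the mRNAs. It was -0.20 without knockout 2, 0.23 without wild type 1, 0.39 without wild type 2, 0.51 without knockout 1, 1.45 without wild type 3 and 1.79 without knockout 3, and -0.14 with the length slope as a covariate.

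Nuclear genes of the same machinery were read beside these values, and 0 of each list were called. The list of nuclear partners held 20 subunits of complexes I to V and cytochrome c, all tested. Of these, 19 had negative log2 fold changes and 1 a positive one, with a median of -0.33, where 45.0% of all tested genes were positive. Cox4i1, a complex IV subunit, stood at 992, 715 and 258 FPKM in wild type 1 to 3 and at 327, 150 and 978 FPKM in knockout 1 to 3. Wild type 3, knockout 1 and knockout 2 were the 3 lowest libraries for 16 of the 20 partners, and for 35.0% of all tested genes. Uqcrc1, a complex III core protein, had the smallest p of the list, at 4.27 ± 2.51 against 2.20 ± 0.547 FPKM (SD, n = 3 each; limma adjusted p = 0.993). Cox4i1 was chosen as an example after its values were seen.

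**Figure D5:**
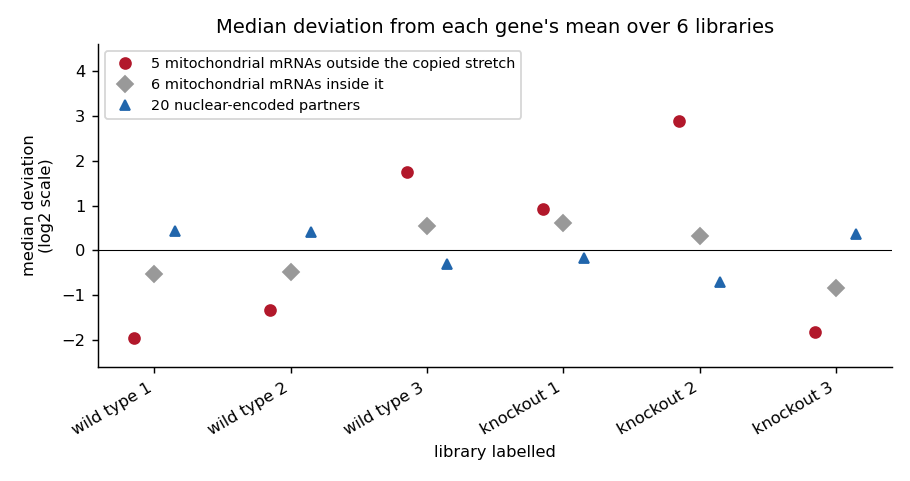
Median over genes of the deviation of log2(FPKM + 1) from each gene's mean over the 6 libraries, for the 5 mitochondrial mRNAs outside the copied stretch (red circles), the 6 inside it (grey diamonds) and 20 nuclear partners (blue triangles). The outside mRNAs run from -1.95 in wild type 1 to 2.88 in knockout 2, and the partners from 0.42 in wild type 1 to -0.71 in knockout 2.

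Genes that transcribe and replicate mitochondrial DNA, of which 13 of 17 were tested, had 4 positive and 9 negative log2 fold changes. Tfam, which packages mitochondrial DNA and starts its transcription, stood at 11.9 ± 1.57 and 9.80 ± 2.58 FPKM, and Ssbp1, its single-strand binding protein, at 4.24 ± 0.797 and 3.68 ± 1.22 FPKM (SD, n = 3 each). Tfam was lowest in knockout 2, where the mRNAs were highest, and varied 1.79-fold over the libraries. Genes of RNA processing, stability and decay divided evenly, with 10 of 20 tested positive, and Supv3l1, a mitochondrial RNA helicase, stood at 12.0 ± 2.53 and 9.87 ± 1.44 FPKM. Of 18 tested genes that modify mitochondrial tRNA and rRNA, 2 were positive and 16 negative, with a median of -0.29. Rpusd4, a pseudouridine synthase acting on the 16S rRNA, stood at 7.89, 7.44 and 6.79 FPKM in wild type 1 to 3 and at 5.31, 5.39 and 5.67 FPKM in knockout 1 to 3. Its groups did not overlap, as in 3.53% of all genes, and limma gave an unadjusted p of 0.0751 and an adjusted p of 0.993. Of 6 tested regulators of mitochondrial biogenesis, 4 were positive. Nrf1, a transcription factor for many nuclear partners, stood at 7.78, 7.69 and 5.84 FPKM in wild type 1 to 3 and at 5.36, 4.96 and 8.11 FPKM in knockout 1 to 3, lowest in the 3 libraries with most mitochondrial mRNA. Gabpa, another such factor, stood at 4.26, 4.83 and 8.99 FPKM and at 8.16, 13.1 and 3.94 FPKM, highest in those 3.

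Several other quantities moved with the mitochondrial mRNAs across libraries, and their part in the result was not tested. Malat1, a long RNA retained in the nucleus, stood at 31.0, 38.8 and 97.6 FPKM in wild type 1 to 3 and at 70.8, 183 and 33.2 FPKM in knockout 1 to 3, high in the same 3 libraries. The other 2 tested RNAs of its list did not have that order. Neat1 ran from 2.96 FPKM in wild type 3 to 4.17 FPKM in knockout 1, and Xist stood at 16.7, 11.8 and 14.1 FPKM and at 16.6, 42.4 and 15.6 FPKM. Erythroid markers ran the other way, and 5 of 5 were lowest in those 3. Their summed level was 4455, 2793 and 613 FPKM in wild type 1 to 3 and 756, 473 and 3512 FPKM in knockout 1 to 3. All 13 granulosa markers were detected, with sums of 7899 to 14529 FPKM in the wild-type and 5781 to 11195 FPKM in the knockout libraries, and 8 of 13 were lowest in those 3. Oocyte markers summed to 269 to 490 FPKM and 244 to 421 FPKM, with 7 of 9 lowest in those 3. Surface epithelium markers summed to 285, 151 and 91.7 FPKM in wild type 1 to 3 and 110, 64.4 and 285 FPKM in knockout 1 to 3, with 5 of 6 lowest in those 3. Of the stromal, pericyte and smooth muscle markers, 4 of 6 tested were highest in them. Their summed level did not follow, at 102, 51.3 and 47.8 FPKM in wild type 1 to 3 and 86.0, 65.7 and 94.7 FPKM in knockout 1 to 3. Acta2, the largest part of that sum, was highest in wild type 1, at 83.2 FPKM, and lowest in wild type 3, at 27.2 FPKM. Endothelial markers, low in all libraries, summed to 10.5, 6.60 and 15.5 FPKM in wild type 1 to 3 and 16.1, 18.7 and 12.9 FPKM in knockout 1 to 3. Of 5 tested, 3 were highest in wild type 3, knockout 1 and knockout 2, and 0 lowest. Of the theca markers 2 of 5 tested were highest there and 1 lowest, and of the leukocyte markers 0 of 4 and 1. Of 8 tested mitochondrial stress genes, 7 had negative and 1 a positive log2 fold change. Hspe1, a mitochondrial chaperonin, stood at 619, 372 and 158 FPKM and at 175, 104 and 503 FPKM.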

How the data were processed

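RNA-seq tables of 6 granulosa cell libraries were used, grouped by title, 3 labelled wild type and 3 labelled Gm12840-/-. The authors deposited FPKM values for each of 54551 features, and per the labels' protocols the libraries were made with a TruSeq RNA kit. The submitters' processing notes name HISAT2 2.0.5 and mm10. The sources used here give neither the counter, nor the annotation release, nor the treatment of reads with several matches. FPKM times length came out as whole reads in 100% of values within 0.01 reads, which gave depths of 16392098 to 19465847 reads. The library totals behind the FPKM were 0.894, 0.939 and 1.12 times these in wild type 1 to 3. In knockout 1 to 3 they were 1.12, 1.12 and 0.904 times. FPKM thus set wild type 3, knockout 1 and knockout 2 lower against the other libraries than shares of reads do. Libraries of one label differed by more than sampling noise, so none was counted as a copy.

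limma 3.58.1 in R 4.3.3 was fitted on log2(FPKM + 1) over all features with FPKM over 1 in at least 3 libraries, with a trend in the prior variance, genotype as the only term, two-sided p-values and Benjamini-Hochberg adjustment at 0.05. It was tested on simulated counts in which genes varied independently of one another. The real libraries differed in many genes together, so that test does not give the error rate here. An exact permutation test of 3 against 3 libraries cannot give a p under 0.1, so none is reported. Sequences were read from GENCODE M21 transcripts (GRCm38, the build called mm10), in which all 37 lengths equalled the deposited ones, and nuclear copies were aligned to them without gaps. No genome sequence was used here.

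Named genes were every mitochondrial mRNA and rRNA, the 4 tRNAs with the highest mean FPKM, and the 2 genes with the smallest p of each nuclear list. Not all of the latter are described. The members and lists were chosen with earlier results of these data known. Of the listed genes, Prorp and Mtres1 were not matched by name. Alternatives were pseudocounts, filters, scalings, limma-voom on recovered reads, a block for the replicate number, a table of protein-coding and mitochondrial genes, and each library left out. The length slope as a covariate, the sum of gene and copy, and mRNAs outside the copied stretch alone were chosen after seeing the data. The remaining lists gave 0 called genes: theca (5 positive and 0 negative of 5 tested), stroma (6 and 0 of 6), endothelium (5 and 0 of 5), leukocytes (2 and 2 of 4), surface epithelium (0 and 6 of 6), nuclear-retained RNAs (3 and 0 of 3) and non-polyadenylated RNAs (0 and 1 of 1). Rmrp, Rpph1 and Rny3 of the last list were listed at 0 in all 6 libraries. Figures were drawn with matplotlib 3.10.9.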

Additional observations from a re-analysis of the deposited data

How the results depend on the processing

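No mitochondrial gene was called under any setting run, and over all genes the count stayed at 0 except with the length slope as a covariate, where limma called 1 gene, Mir1291, which is no member. Genes at an unadjusted p under 0.05, 91 as reported, numbered 75 with limma-voom, 476 with no filter, 627 with the length slope and 656 without knockout 3. Of the 25 members tested, 0 as reported had such a p, against 3 with the length slope, 1 without knockout 2 and 4 without knockout 3, where the lowest adjusted p was 0.466. The median log2 fold change of the mRNAs was 0.67 to 0.81 under pseudocounts 0.1 and 5, the other filters, scalings and limma-voom, 0.95 for the 5 mRNAs outside the copied stretch and -0.14 with the length slope, and leaving out 1 library gave -0.20 to 1.79. With the length slope the log2 fold change reversed for mt-Nd1 (-0.32), mt-Co1 (-0.36), mt-Nd4 (-0.50), mt-Nd6 (-0.14), mt-Cytb (-0.29) and mt-Tp (-0.37). It reversed for mt-Atp8 with a pseudocount of 0.1 (0.56) and with limma-voom (0.26), and for mt-Co3 with library totals that leave out mitochondrial genes (0.0040). Leaving out 1 library in turn turned the sign of these: mt-Nd1 -0.26 to 2.60, mt-Co1 -0.34 to 2.02, mt-Co3 -0.37 to 0.090, mt-Atp8 -0.73 to 0.93, mt-Atp6 -0.69 to 0.80, mt-Nd4l -0.20 to 2.12, mt-Nd4 -0.33 to 3.32, mt-Nd5 -0.30 to 1.51, mt-Nd6 -0.17 to 1.79, mt-Cytb -0.20 to 2.62, mt-Tp -0.36 to 2.22, mt-Tc -0.0055 to 0.63 and mt-Tl2 -0.38 to 0.85. The cause was not tested. With the replicate number as a block, 0 genes were called, 27 had an unadjusted p under 0.05 and the median of the mRNAs was 0.71. Same-numbered libraries did not pair, with correlations of their deviations of -0.42, -0.67 and -0.89, and the closest match of a library was its own number in 0 of 6 cases. Taken as sums of FPKM, mean shares were 1.82% and 4.34% for mRNAs (wild type and knockout), 0.0537% and 0.0923% for rRNAs (wild type and knockout) and 0.0679% and 0.131% for tRNAs. Without mt-Co1 the mRNA shares were 0.376% and 0.912%. Without mt-Rnr2 the rRNA share was 0.0115% and 0.0185%. As shares of mRNA reads, not per length, mt-Co1 was 55.8%, mt-Atp6 0.254%, mt-Nd3 0.0307% and mt-Nd6 1.95% on average. Counts were low for the tRNAs, mt-Atp8, mt-Nd4l and mt-Nd3, with 53 to 186 reads over the 6 libraries for these 3 mRNAs.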
